A study of Mus musculus with 9 samples.

Results

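Immediate early genes are switched on within minutes of a stimulus from transcription factors that are already present in the cell, without new protein synthesis, and their messages decay quickly. Growth factors, stretch, anoxia and handling of tissue all induce them, mainly through MAP kinases that act on ternary complex factors bound with serum response factor (SRF) and through cyclic AMP and calcium signals that act on CREB. Most of them encode transcription factors of the AP-1 and EGR families, and others encode brakes on the same kinases. The 10 genes described here were chosen by name: the AP-1 subunits Fos, Fosb, Jun and Junb, the zinc finger factors Egr1, Egr2 and Egr3, the stress-induced factor Atf3, the nuclear protein gene Ier2 and the phosphatase gene Dusp1. They are 10 of 56305 gene identifiers in the count table. After a filter on low counts 9 of them were among the 15974 genes tested, and Egr2 was not.

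RNA was sequenced from kidney of mice in 3 groups of 3 libraries. Sham libraries came from animals of the genotype labelled PFKFB3 WT after a sham operation. Injured wild-type libraries came from the same genotype at day 14 after ischemia-reperfusion injury (IRI), in which both renal arteries were clamped for 30 min. Injured knockout libraries came from animals labelled PFKFB3 CKO or Pfkfb3ΔPTC, which lack Pfkfb3 conditionally in proximal tubular cells, also at day 14 after IRI, and the controls were littermates. Pfkfb3 encodes an enzyme that makes fructose 2,6-bisphosphate, an activator of glycolysis. The promoter that drives the recombinase, the age and sex of the animals and the time of collection after the sham operation were not among the labels used here, and a sham group of knockout animals was not analysed here. Nothing in the labels ties the libraries of a group to separate animals, so a p-value reflects only how far these libraries spread, and that spread may be technical.

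Library totals ran from 15626792 to 19987842 counts. Levels are given as CPM, the count of a gene relative to its library's total in the usual per-million unit, with totals scaled by the trimmed mean of M values (TMM). Pfkfb3 stood at 19.99, 20.2 and 21.9 CPM in sham, at 36.2, 34.4 and 25.3 CPM in injured wild-type and at 25.2, 19.8 and 17.3 CPM in injured knockout libraries. It was lower in the knockout than in injured wild-type libraries by 0.62 on the log2 scale (SE 0.17, adjusted p = 0.00773, edgeR quasi-likelihood test) and differed by 0.01 from sham (adjusted p = 0.988). The 6 proximal tubule markers, which define most of the kidney cortex, were detected in every group. Their summed level was 11491 to 13047 CPM in sham, 1937 to 3212 CPM in injured wild-type and 9734 to 11123 CPM in injured knockout libraries, and all 6 fell with injury. The 5 macrophage and monocyte markers all rose with injury, from a sum of 109 to 143 CPM to a sum of 1212 to 1379 CPM, and lay at 104 to 122 CPM in the knockout. The 4 fibroblast markers also all rose, from 65.4 to 123 CPM to 1351 to 1762 CPM, and lay at 80.5 to 172 CPM in the knockout. Of the other lists, 4 of 4 thick ascending limb and distal tubule, 1 of 4 endothelial, 1 of 5 neutrophil and 1 of 4 smooth muscle and pericyte markers fell with injury, while 4 of 4 T and NK cell, 3 of 3 B and plasma cell, 2 of 5 neutrophil and 1 of 4 smooth muscle and pericyte markers rose. None of the 4 collecting duct, 3 podocyte, 5 erythrocyte or 1 tested adrenal markers passed the test with injury, the 1 tested skeletal muscle gene, Acta1, rose from 0 CPM to at most 1.78 CPM, and no adipocyte marker was tested. Lep, Cyp11b2, Th and Myh4 of these last 3 lists were listed at 0. The marker counts stand beside 29.5% called higher and 28.7% called lower with injury among all tested genes. Injured knockout replicate 1 stood apart, with a podocyte sum of 75.5 CPM against 323 and 330.5 CPM, an endothelial sum of 84.9 against 212 and 218 CPM, and a collecting duct sum of 1660.2 against 658 and 712 CPM in the other knockout libraries. Counts of mitochondrially encoded genes made up 8.46 to 11.3% of sham, 6.08 to 7.20% of injured wild-type and 12.7 to 13.9% of injured knockout libraries. In bulk tissue fewer cells of a type and less RNA per cell cannot be told apart, and the part of these cell markers in the differences below was not tested.

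Windows from 250 bases before to 50 bases after the annotated start show the part of the control regions nearest the start. They are given for 4 of the genes and for Nr4a1 and Btg2, and every window given holds TGACG or its reverse complement. Among genes with a window that holds a CRE, Nr4a1 and Btg2 followed the genes described here most closely. Gadd45g followed them more closely still, and its window holds neither the short nor the full CRE. The windows are RefSeq sequences of build GRCm38.p6, printed 5′ to 3′ on the strand of the gene. Capitals mark TGACG or its reverse complement CGTCA, the core of the cyclic AMP response element (CRE) bound by CREB and ATF proteins, the full CRE TGACGTCA, and the TATA motif TATAAA. The windows are Fos at chr12:85473640-85473939 on the plus strand, Junb at chr8:84978699-84978998 on the minus strand, Atf3 at chr1:191183284-191183583 on the minus strand, Dusp1 at chr17:26508423-26508722 on the minus strand, Nr4a1 at chr15:101266596-101266895 on the plus strand and Btg2 at chr1:134079106-134079405 on the minus strand.
Fos: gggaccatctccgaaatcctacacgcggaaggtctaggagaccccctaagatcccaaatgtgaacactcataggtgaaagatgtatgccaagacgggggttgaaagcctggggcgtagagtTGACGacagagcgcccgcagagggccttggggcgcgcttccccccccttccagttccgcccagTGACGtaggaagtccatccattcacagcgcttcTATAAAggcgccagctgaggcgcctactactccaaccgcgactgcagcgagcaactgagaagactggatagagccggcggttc
Junb: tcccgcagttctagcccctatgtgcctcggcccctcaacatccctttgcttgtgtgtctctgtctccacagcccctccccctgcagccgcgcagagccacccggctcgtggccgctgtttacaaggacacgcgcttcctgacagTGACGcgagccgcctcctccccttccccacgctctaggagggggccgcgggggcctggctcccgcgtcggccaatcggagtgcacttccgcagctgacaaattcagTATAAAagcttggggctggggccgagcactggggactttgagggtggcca
Atf3: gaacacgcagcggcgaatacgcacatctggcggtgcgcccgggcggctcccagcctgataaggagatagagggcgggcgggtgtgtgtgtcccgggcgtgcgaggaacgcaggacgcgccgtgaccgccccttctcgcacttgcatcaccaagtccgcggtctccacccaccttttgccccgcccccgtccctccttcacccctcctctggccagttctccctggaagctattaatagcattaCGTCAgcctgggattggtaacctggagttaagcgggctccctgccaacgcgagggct
Dusp1: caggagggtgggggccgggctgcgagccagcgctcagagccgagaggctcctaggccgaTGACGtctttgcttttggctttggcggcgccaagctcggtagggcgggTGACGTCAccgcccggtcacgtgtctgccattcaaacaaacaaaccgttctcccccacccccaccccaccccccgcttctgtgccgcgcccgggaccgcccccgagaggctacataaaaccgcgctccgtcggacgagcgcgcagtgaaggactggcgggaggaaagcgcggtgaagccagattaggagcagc
Nr4a1: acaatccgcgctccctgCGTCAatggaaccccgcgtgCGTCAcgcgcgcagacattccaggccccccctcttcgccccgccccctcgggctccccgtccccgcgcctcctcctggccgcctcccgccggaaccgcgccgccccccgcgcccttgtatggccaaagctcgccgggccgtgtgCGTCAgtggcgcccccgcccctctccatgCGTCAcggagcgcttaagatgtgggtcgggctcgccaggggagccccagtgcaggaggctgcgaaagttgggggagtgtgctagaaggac
Btg2: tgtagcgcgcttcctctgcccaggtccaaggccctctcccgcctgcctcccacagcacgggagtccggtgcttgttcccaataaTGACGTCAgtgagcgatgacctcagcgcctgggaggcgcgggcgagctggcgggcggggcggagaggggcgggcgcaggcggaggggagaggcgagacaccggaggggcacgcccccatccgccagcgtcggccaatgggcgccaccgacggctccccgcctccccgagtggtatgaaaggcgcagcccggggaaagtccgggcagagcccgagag

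The short CRE TGACG, searched on both strands, stood in the window of 6 of the 7 genes that have one in the table, namely Fos, Fosb, Junb, Egr2, Atf3 and Dusp1. The same letters were in 20.8% of all 32851 windows and in at least 1 window of 23.0% of the 27025 genes with a window. The Jun window held none of the motifs searched. The Fos window held TGACG at positions -129 and -66 and TATAAA at position -33, counted with the annotated start at position 1 and no position 0. The Dusp1 window held it at positions -191, -143 and -140, the last 2 on opposite strands within the full CRE TGACGTCA, which contains the short one. The full CRE was in 1.79% of all windows. Of the 7 genes, Egr2 alone held a CArG box, the binding site of SRF, within these windows, and 1.63% of all windows held one. Sites more than 250 bases before the start lie outside the windows, so their absence from a gene is not shown. Egr1, Egr3 and Ier2 had no window to search. TATAAA was in the windows of Fos and Junb and in 13.6% of all windows. In the Junb window it began at position 1, on the annotated start itself. The AP-1 motif TGANTCA was in the windows of 0 of the 7 genes and in 7.81% of all windows. The EGR motif GCGNGGGCG was in that of Fosb and in 5.55% of all windows. Egr2 has 5 windows, so it had more chances of a match than the genes with 1 window. A match of letters is a description and not a site shown to be bound.

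Most of the genes were expressed in sham kidney at levels that differed widely between the 3 libraries, and the same library was highest for every one of them. For each gene the highest sham value over the lowest was 10.2 for Fosb, 6.19 for Egr1, 5.60 for Fos, 3.78 for Egr3, 3.61 for Jun, 3.45 for Junb, 3.21 for Atf3, 2.53 for Ier2 and 1.5 for Dusp1. Thus 8 of the 9 genes passed 2-fold, with a median ratio of 3.61. Among all tested genes 13% passed 2-fold with a median ratio of 1.27. Among the 11224 genes averaging at least 5 CPM, to which 7 of the 9 belong, 2.09% did so with a median ratio of 1.20. Of those 7, the SD of log2 CPM in sham lay at the 99.9th percentile of such genes for Fos and Egr1, at the 99.7th for Jun, Junb and Atf3, at the 99.4th for Ier2 and at the 88.3th for Dusp1.

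**Figure D1:**
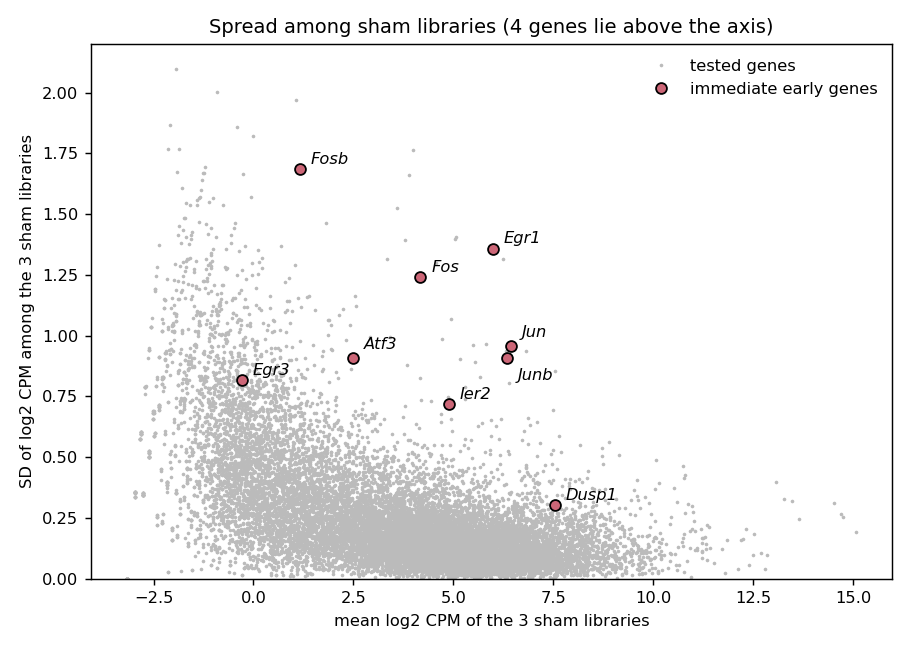
Spread among sham libraries. Each point is a tested gene, with the mean log2 CPM of the 3 sham libraries on the x axis and the SD of log2 CPM among those libraries on the y axis, and the 9 immediate early genes are named. Fos and Egr1 lie at the 99.9th percentile of genes with at least 5 CPM, and Dusp1 lies at the 88.3th.

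The counts behind these values set their precision. The coefficient of variation among sham libraries was 99.3% for Egr1, 77.2% for Fos, 73.9% for Jun and 25.6% for Dusp1, and counting error alone gives 2.56%, 5.04%, 2.36% and 1.74% for the same genes. Egr3 was counted in only 6, 24 and 12 reads, and its 65.5% stands beside a counting error of 26.7%.

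Sham replicate 2 was the highest sham library for 9 of 9 genes and sham replicate 3 the lowest for 7 of 9. Over the mean of the other sham libraries, replicate 2 held 4.67 times as much Egr1, 3.01 times as much Atf3, 3 times as much Jun, 2.95 times as much Fos, 2.73 times as much Junb, 2.49 times as much Egr3, 2.34 times as much Ier2, 2.30 times as much Fosb and 1.42 times as much Dusp1. Without sham replicate 2, only 3 of the 9 genes differed by over 2-fold between the remaining sham libraries: Fosb by 7.88, Fos by 2.80 and Egr3 by 2.03. Injured wild-type replicate 2 was likewise the highest of its group for 9 of 9 genes, and replicate 1 the lowest for 8 of 9. The exception was Egr3, lowest in replicate 3. The injured knockout libraries had no common order: replicate 3 was highest for 5 genes and replicates 1 and 2 for 2 each. In injured wild-type 5 of 9 genes spread over 2-fold (9.95% of tested genes), and in the injured knockout 4 of 9 did (18.1%). The labels do not say whether a replicate number ties libraries of different groups.

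**Figure D2:**
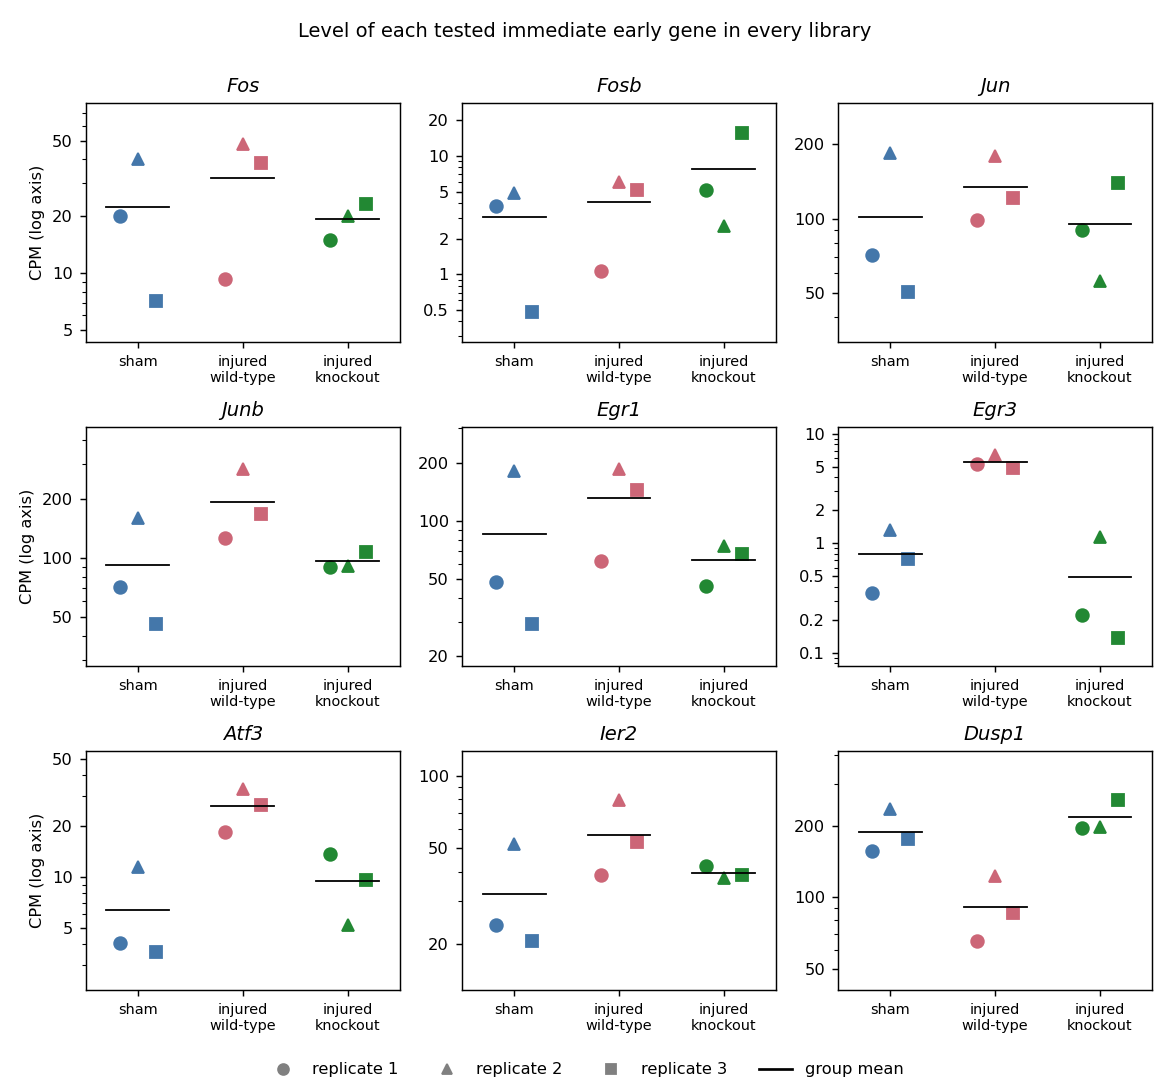
Level of each tested gene in every library. The y axes show CPM on a log scale that differs between panels, symbols mark the replicate number within a group and lines mark group means. The triangle of replicate 2 is the highest in both sham and injured wild-type for 9 of 9 genes.

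Per kilobase of exon, which allows levels of different genes to be compared, Dusp1 was the most abundant in sham at 57.3 ± 12.4 CPM per kilobase (SD, n = 3 here and below). Junb followed at 40 ± 25.9, Jun at 31.9 ± 22.4, Ier2 at 21.1 ± 11.4, Egr1 at 19.2 ± 18.4, Fos at 9.51 ± 7.04, Atf3 at 2.95 ± 2.05, Fosb at 0.486 ± 0.366 and Egr3 at 0.181 ± 0.112 CPM per kilobase. Every gap between neighbours in that order was smaller than the larger of both SDs, except the gap between Atf3 and Fosb. In injured wild-type libraries Junb led at 83.4 ± 35.3 CPM per kilobase, ahead of Jun at 41.8 ± 13, and Dusp1 stood at 27.6 ± 8.78, next to Egr1 at 29.2 ± 14.1. The gap of Junb to Jun exceeded the larger SD there, and that of Egr1 to Dusp1 did not. In the injured knockout Dusp1 led again at 65.7 ± 10.8 CPM per kilobase, ahead of Junb at 41.8 ± 4.32, a gap larger than either SD.

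The comparison of injured wild-type with sham libraries asks what remained different at day 14 after the injury. Of the 9 tested genes 4 rose (Junb, Egr3, Atf3 and Ier2) and 1 fell (Dusp1) at a false discovery rate of 0.05 in edgeR's quasi-likelihood test. In this comparison 29.5% of all tested genes were called higher and 28.7% lower, 58.2% in all, so that the count for the set lies close to that of the whole table. The median log2 fold change was 0.60 for the 9 genes and 0.03 for all tested genes. The comparison of injured knockout with injured wild-type libraries asks what differed with the loss of Pfkfb3 in proximal tubular cells. There 1 of the 9 genes was higher (Dusp1) and 3 were lower (Junb, Egr3 and Atf3), beside 27.8% higher and 28.1% lower, 55.9% in all, among all tested genes. The median was -0.72 for the 9 genes and -0.01 for all. Both comparisons use the injured wild-type libraries, so their values are not independent. Between injured knockout and sham libraries 0 of the 9 genes were called by edgeR, beside 17.6% of all tested genes (8.13% higher and 9.48% lower). There 0 had an unadjusted p under 0.05, DESeq2 also called 0, and edgeR without the filter on low counts called 1, Fosb.

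**Figure D3:**
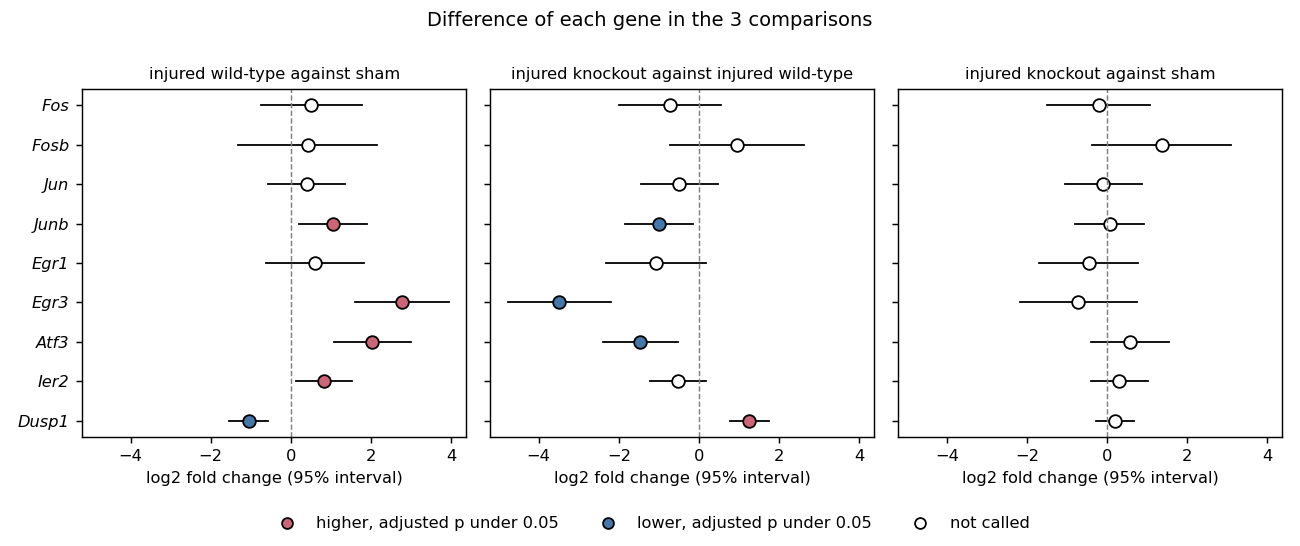
Log2 fold change of each tested gene in the 3 comparisons. Points are the fitted values and lines their 95% intervals, and filled points passed a false discovery rate of 0.05. Egr3 has the values farthest from 0 in the first 2 panels, 2.77 and -3.48, and no interval in the last panel excludes 0.

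The AP-1 proteins bind DNA as pairs, in which Fos proteins need a Jun partner and Jun proteins can also pair with each other. Fos, an inducible subunit that defines the early response, measured 19.99, 39.98 and 7.14 CPM in sham, 9.29, 48.1 and 38.4 CPM in injured wild-type and 14.9, 20.05 and 23.2 CPM in injured knockout libraries. The groups overlapped throughout, and both the sham and the injured wild-type group held a library under 10 CPM and a library near or above 40 CPM. Its log2 fold change was 0.51 (SE 0.58, adjusted p = 0.469) with injury and -0.72 (SE 0.58, adjusted p = 0.316) in the knockout against injured wild-type. Without sham replicate 2 the first value was 1.25 (adjusted p = 0.105), and it was 0.08 without sham replicate 3 and 0.09 without injured wild-type replicate 2. With all libraries the 95% intervals of -0.75 to 1.77 and -2.0 to 0.56 include changes of over 2-fold.

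Fosb, a Fos relative whose truncated product is long-lived in neurons, was the least abundant of the Fos and Jun genes in the set, at 3.75, 4.87 and 0.476 CPM in sham and 1.06, 6.001 and 5.12 CPM in injured wild-type libraries. The injured knockout libraries held 5.19, 2.56 and 15.8 CPM. Its highest value of all 9 libraries was in knockout replicate 3, and the groups overlapped. The log2 fold change was 0.42 (SE 0.79, adjusted p = 0.677) with injury and 0.95 (SE 0.76, adjusted p = 0.314) in the knockout against injured wild-type. Without knockout replicate 3 the second value was -0.06. The knockout exceeded sham by 1.37 (adjusted p = 0.247), and by 0.35 without knockout replicate 3.

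Jun, the subunit that c-Jun N-terminal kinases phosphorylate, measured 71.4, 183 and 50.7 CPM in sham, 99.1, 179.6 and 122 CPM in injured wild-type and 89.96, 56.0 and 139.7 CPM in injured knockout libraries. Sham replicate 2 held more than any other of the 9 libraries, and the groups overlapped. The log2 fold change was 0.39 (SE 0.44, adjusted p = 0.467) with injury. Without sham replicate 2 it was 1.14, and Jun was called higher (adjusted p = 0.0217). Between the knockout and injured wild-type it was -0.49 (SE 0.44, adjusted p = 0.369). Jun shares 232 exon bases with the antisense gene Junos, and whether counting used strand is not given in the sources, so reads of both cannot be told apart.

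Junb, which pairs with Fos proteins and can hold back the action of Jun, measured 70.8, 159 and 46.1 CPM in sham and 126, 283 and 166 CPM in injured wild-type libraries. Injured knockout libraries lay close together at 89.7, 91.2 and 108 CPM. Sham replicate 2 lay above injured wild-type replicate 1, so sham and injured wild-type overlapped, whereas all 3 knockout values lay below all 3 injured wild-type values. Junb rose 2.08-fold with injury (log2 fold change 1.06, SE 0.39, adjusted p = 0.0355) and was 1.99-fold lower in the knockout than in injured wild-type (log2 fold change -0.996, SE 0.39, adjusted p = 0.0472). The first call ended without sham replicate 1, sham replicate 3 or injured wild-type replicate 2 (log2 fold change 0.89, 0.73 and 0.66), and the value was 1.73 without sham replicate 2. The second call ended in 6 of the 9 leave-one-out fits. Its log2 fold change was -0.60 without injured wild-type replicate 2 and lay between -0.94 and -1.09 in the other 5. DESeq2 made neither call (adjusted p = 0.079 and 0.0952), with log2 fold changes of 1.05 and -1.01. Junb shares 173 exon bases with Prdx2 on the opposite strand.

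EGR proteins are zinc finger factors that bind GC-rich sites and are held in check by the corepressors NAB1 and NAB2. Egr1, the best known member of the family, measured 48.1, 180.5 and 29.2 CPM in sham and 62.0, 186 and 144 CPM in injured wild-type libraries. Injured knockout libraries held 45.9, 74.3 and 67.0 CPM. Sham replicate 2 lay near the top of the injured wild-type range, and the other sham libraries lay below all injured wild-type values. With all libraries the log2 fold change was 0.60 (SE 0.56, adjusted p = 0.379) with injury. Without sham replicate 2 it was 1.77, and Egr1 was called higher (adjusted p = 0.00496). The knockout differed from injured wild-type by -1.07 (SE 0.57, adjusted p = 0.132), with a 95% interval of -2.31 to 0.18. That difference was called without sham replicate 2 (adjusted p = 0.0234) and when only both injured groups were fitted (adjusted p = 0.0298). It was also called with library size alone in place of TMM (log2 fold change -1.65, adjusted p = 0.0269) and without the filter on low counts.

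Egr2 was listed at 0 in all 9 libraries. Its row lies in a run of 12 rows that are all at 0, with the protein-coding genes Nrbf2 and Ado. Srsf1, Ranbp1, Kif11 and Atp6v1c1, among which are genes of splicing and nuclear transport that every dividing cell uses, were listed at 0 as well, as were 4562 of 21974 protein-coding genes in the table. The value of Egr2 is therefore given as listed and not read as a level.

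Egr3, a target of the same signals that is known for its role in lymphocytes and muscle spindles, was the gene with the largest changes of the set. It was counted in 6, 24 and 12 reads in sham, 116, 143 and 113 reads in injured wild-type and 3, 15 and 2 reads in injured knockout libraries, or 0.352, 1.33 and 0.714 CPM, 5.33, 6.36 and 4.86 CPM, and 0.219, 1.13 and 0.138 CPM. All 3 injured wild-type values lay above all 6 others, while sham and knockout overlapped. Egr3 rose 6.82-fold with injury (log2 fold change 2.77, SE 0.54, adjusted p = 0.000939) and was 11.2-fold lower in the knockout than in injured wild-type (log2 fold change -3.48, SE 0.59, adjusted p = 0.000383). Both calls held in all 9 leave-one-out fits, with values of 3.37 without sham replicate 2 for the first and -4.90 without knockout replicate 2 for the second. The knockout differed from sham by -0.72 (adjusted p = 0.489), a value that was -2.14 without knockout replicate 2 (adjusted p = 0.0696) and -0.13 without sham replicate 2.

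Atf3, a stress-induced factor of the ATF and CREB family that mostly represses transcription, measured 4.05, 11.5 and 3.57 CPM in sham and 18.4, 33.3 and 26.8 CPM in injured wild-type libraries. Injured knockout libraries held 13.7, 5.201 and 9.56 CPM. Injured wild-type values lay above all others, and the sham and knockout ranges overlapped. Atf3 rose 4.09-fold with injury (log2 fold change 2.03, SE 0.44, adjusted p = 0.00194) and was 2.75-fold lower in the knockout than in injured wild-type (log2 fold change -1.46, SE 0.43, adjusted p = 0.0127). Without sham replicate 2 the first value was 2.79, and both calls held in all 9 leave-one-out fits. The second call came close to the threshold of 0.05 without knockout replicate 2 (log2 fold change -1.16, edgeR adjusted p = 0.0497). It did so too without injured wild-type replicate 2 (-1.24, edgeR adjusted p = 0.0475). The knockout exceeded sham by 0.57 (SE 0.45, adjusted p = 0.397), with a 95% interval of -0.41 to 1.55, and by 1.32 without sham replicate 2 (adjusted p = 0.0783).

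Ier2, whose product is a nuclear protein induced with the Fos and Jun genes, measured 23.9, 52.1 and 20.5 CPM in sham, 38.8, 79.6 and 52.9 CPM in injured wild-type and 42.3, 37.7 and 38.9 CPM in injured knockout libraries. The knockout values were the most even of the set, and sham replicate 2 lay within the injured wild-type range. Ier2 rose 1.77-fold with injury (log2 fold change 0.83, SE 0.32, adjusted p = 0.0447). The call ended in 6 of the 9 leave-one-out fits, with values from 0.51 without injured wild-type replicate 2 to 1.38 without sham replicate 2. Between knockout and injured wild-type the log2 fold change was -0.53 (SE 0.32, adjusted p = 0.185). With library size alone in place of TMM it was -1.10, and Ier2 was called lower (adjusted p = 0.0113). Ier2 was also called there without the filter on low counts.

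Dusp1 encodes a nuclear phosphatase that switches off p38 and c-Jun N-terminal kinases, and it is induced as part of the early response that it ends. It measured 157, 236 and 176 CPM in sham, 65.2, 123 and 85.9 CPM in injured wild-type and 196, 198.5 and 259 CPM in injured knockout libraries. All 3 injured wild-type values lay below all 6 others, and sham and knockout overlapped. Dusp1 fell 2.08-fold with injury (log2 fold change -1.05, SE 0.22, adjusted p = 0.00164) and was 2.38-fold higher in the knockout than in injured wild-type (log2 fold change 1.25, SE 0.22, adjusted p = 0.000541). Both calls held in all 9 leave-one-out fits. With library size alone in place of TMM the fall was -0.52 (adjusted p = 0.06). That scaling moved the median of all tested genes to 0.57 with injury and to -0.59 in the knockout against injured wild-type, and no gene of the set changed direction under it in these comparisons. Dusp1 shares 11 exon bases with Ergic1 on the opposite strand.

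No gene of the set separated the injured knockout from sham libraries, and the groups overlapped for 9 of 9 genes where 36.3% of all tested genes did not overlap. The log2 fold changes were -0.21 for Fos, 1.37 for Fosb, -0.10 for Jun, 0.06 for Junb, -0.46 for Egr1, -0.72 for Egr3, 0.57 for Atf3, 0.30 for Ier2 and 0.20 for Dusp1, with adjusted p from 0.247 to 0.928. The 95% intervals remain wide, for example -1.71 to 0.78 for Egr1 and -0.79 to 0.91 for Junb, and narrowest for Dusp1 at -0.28 to 0.68. For sham against injured wild-type, 66.9% of all tested genes did not overlap, and in the set Egr3, Atf3 and Dusp1 did not. For injured knockout against injured wild-type the share was 63.2%, and Junb, Egr3, Atf3 and Dusp1 did not overlap.

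Differences between libraries of the same group were largely shared among these genes. For each gene the deviation of log2 CPM from its group mean was compared with the mean deviation of the other tested genes over the 9 libraries, of which 6 values are free. Pearson's r was 0.975 for Junb, 0.949 for Egr1, 0.946 for Ier2, 0.913 for Fos, 0.857 for Jun, 0.809 for Dusp1, 0.747 for Atf3 and 0.71 for Fosb, with Spearman's rho of 0.933, 0.85, 0.9, 0.9, 0.85, 0.8, 0.617 and 0.833 in the same order. Egr3 stood apart with r of 0.0773 and rho of 0. These are descriptions without a test, and all genes share the depth and scaling of their libraries. Sham replicates 2 and 3 lay farthest from the median, with mean deviations of 0.99 and -0.79. Without them r was 0.932 for Junb, 0.865 for Egr1, 0.875 for Ier2 and Fos, 0.948 for Dusp1, 0.65 for Jun, 0.562 for Fosb, 0.464 for Atf3 and -0.248 for Egr3. The next largest mean deviations were -0.70 in injured wild-type replicate 1 and 0.57 in injured wild-type replicate 2, while the knockout libraries stayed between -0.12 and 0.23.

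Dusp1 varied with Fos and Egr1 inside the groups, although it fell with injury. Within sham it was highest in replicate 2 at 236 CPM, where Fos and Egr1 were highest too, and within injured wild-type it was highest in replicate 2 at 123 CPM and lowest in replicate 1 at 65.2 CPM, again as Fos and Egr1 were. The lowest sham library was replicate 1 for Dusp1 and replicate 3 for Fos and Egr1, and the highest knockout library was replicate 3 for Dusp1 and Fos and replicate 2 for Egr1. Egr3 was likewise highest in replicate 2 of sham and of injured wild-type. Its injured wild-type values of 4.86 to 6.36 CPM were the most even of the set in that group, with a highest-to-lowest ratio of 1.31, while Fos spread 5.18-fold over the same libraries. In the knockout Egr3 spread 8.22-fold, the widest of the set there, on 3, 15 and 2 reads, and its r rests in part on these counts.

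Genes outside the set that averaged at least 5 CPM were ranked by the same measure against the mean of the 9 genes, and the first 10 by r were named. They were Gadd45g (0.978), Rasd1 (0.968), Nr4a1 (0.967), Btg2 (0.965), Foxq1 (0.941), Pde4b (0.939), Gdf15 (0.929), Ankrd9 (0.928), Csrnp1 (0.925) and Bdh1 (0.923). Over 11217 such genes the median r was 0.00948, the quartiles were -0.233 and 0.238, and 0.847% exceeded 0.8. Nr4a1, an orphan nuclear receptor that is itself an immediate early gene, measured 23.9, 97.4 and 15.1 CPM in sham, 10.6, 74.4 and 49.1 CPM in injured wild-type and 85.7, 73.9 and 94.96 CPM in injured knockout libraries. Its sham and injured wild-type values spanned nearly the same range, and its log2 fold change with injury was -0.03 (SE 0.67, adjusted p = 0.977). Btg2, which slows division and promotes the removal of poly(A) tails, measured 34.1, 96.1 and 27.6 CPM in sham, 59.5, 117 and 104 CPM in injured wild-type and 68.0, 65.9 and 69.4 CPM in injured knockout libraries. Sham replicate 2 was again far above the other sham libraries, and the log2 fold change with injury was 0.83 (SE 0.39, adjusted p = 0.0892). Gadd45g, a growth arrest gene, stood at 161.5, 305 and 119 CPM in sham and 58.8, 125 and 81.1 CPM in injured wild-type libraries, and it fell with injury by 1.15 on the log2 scale (SE 0.32, adjusted p = 0.00975). Of these 10 genes 8 have a promoter window. The short CRE was in at least 1 window of 5 of them (Ankrd9, Btg2, Csrnp1, Nr4a1 and Pde4b). Btg2 held the full CRE. Among all genes with a window, 23.0% held the short CRE and 2.03% the full CRE in at least 1 window. Csrnp1 and Pde4b have 4 windows each and Ankrd9 has 2, so these genes had more chances of a match.

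**Figure D4:**
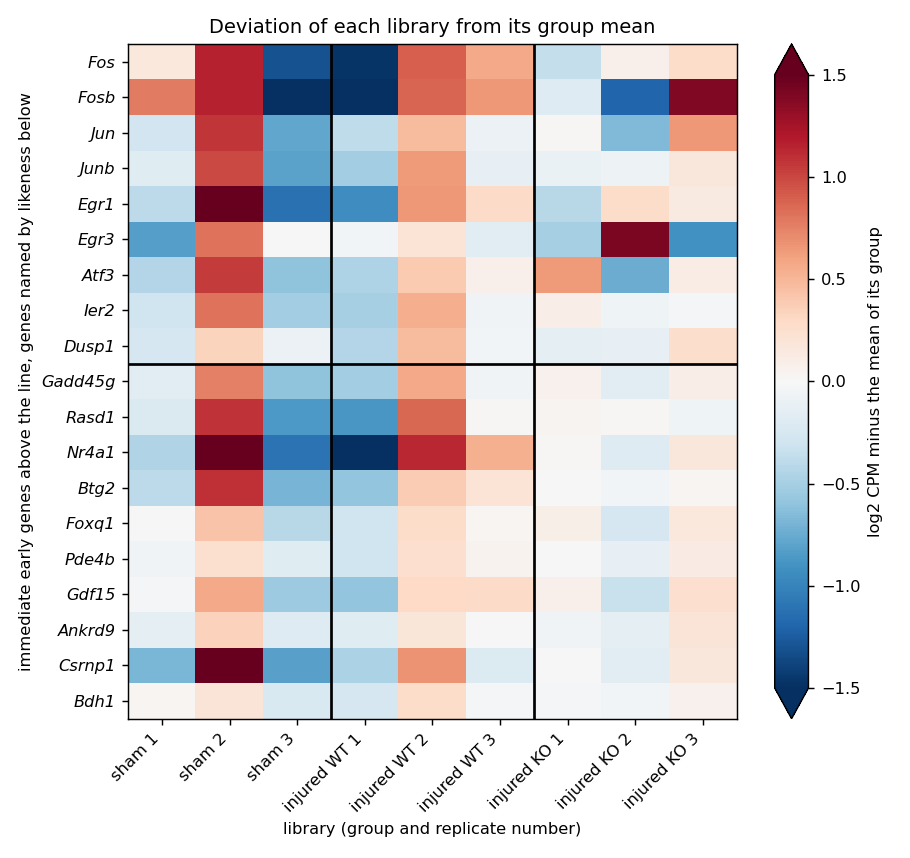
Deviation of each library from the mean of its group. Rows are the 9 tested genes and, under the line, the 10 genes most like them, columns are the 9 libraries, and colour gives log2 CPM minus the group mean, cut at -1.5 and 1.5. Sham replicate 2 and injured wild-type replicate 2 are above their group means in all rows, and sham replicate 3 is below in all rows but Egr3.

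Cell markers and the mitochondrial share were set beside this order of the libraries. Of 53 tested marker genes in 15 lists, 1 exceeded an r of 0.8, the macrophage receptor gene Csf1r at 0.832. In the other direction 2 lay below -0.8, the proximal tubule transporter gene Slc22a8 at -0.923 and the collecting duct gene Foxi1 at -0.859, where 0.544% of all other genes with at least 5 CPM did so. The median r of a list ran from -0.259 for proximal tubule to 0.368 for fibroblast markers. In sham replicates 1, 2 and 3 the macrophage sum was 143, 143 and 109 CPM, the thick ascending limb and distal tubule sum 2781, 4127 and 3222 CPM and the erythrocyte sum 10.1, 39.4 and 106 CPM. The fibroblast sum was 97.2, 123 and 65.4 CPM and the B and plasma cell sum 20.8, 20.9 and 11.5 CPM. The mitochondrial share was 11.3, 8.49 and 8.46%. Fibroblast markers, like 7 of the 9 immediate early genes, were highest in sham replicate 2 and lowest in replicate 3, and B and plasma cell markers had the same highest and lowest library with almost equal sums in replicates 1 and 2. The thick ascending limb and distal tubule sum was highest in replicate 2 and lowest in replicate 1, and the macrophage, erythrocyte and mitochondrial measures were not highest in replicate 2. The part of these markers in the order of the libraries was not tested.

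Other genes of the pathway were taken from 9 lists. Their counts stand beside 29.5% called higher and 28.7% called lower with injury among all tested genes. In the knockout against injured wild-type these shares were 27.8% and 28.1%. Among 12 tested AP-1 relatives and partners 5 rose and 2 fell with injury (median log2 fold change 0.60), and 0 were higher and 9 lower in the knockout against injured wild-type (median -0.91). Batf and Batf3, which form AP-1 pairs in immune cells, rose by 2.63 (SE 0.40) and 2.65 (SE 0.36) on the log2 scale, and Fosl2, a Fos relative, by 1.62 (SE 0.27). In the knockout against injured wild-type the difference was -3.55 (SE 0.45) for Batf. All 4 of these values had an adjusted p of at most 0.000371. They stand beside macrophage and monocyte markers that moved the same way, 5 of 5 higher with injury and 5 of 5 lower in the knockout than in injured wild-type. So did fibroblast (4 of 4 and 4 of 4), B and plasma cell (3 of 3 and 3 of 3) and T and NK cell markers (4 of 4 and 3 of 4). The match is thus not particular to macrophages, and the part of any of these cells was not tested. Jund was listed at 0 in all libraries.

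Of 28 other nuclear immediate early genes 10 rose and 2 fell with injury, and 3 were higher and 11 lower in the knockout against injured wild-type, with medians of 0.43 and -0.39. Ier5 rose by 1.67 (SE 0.17), Klf6, a zinc finger factor induced by injury, by 2.001 (SE 0.24), and Btg1, a relative of Btg2, by 1.13 (SE 0.12). Ier5 differed by -2.28 (SE 0.17) and Btg1 by -1.58 (SE 0.12) in the knockout against injured wild-type. Adjusted p was at most 2.79e-05 for these 5 values. Within groups 8 of the 28 genes exceeded an r of 0.8 (Nr4a1, Nr4a2, Ier3, Ier5, Ier5l, Btg2, Csrnp1 and Tob1), and the list's median r was 0.41.

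Early genes that act outside the nucleus or in RNA decay gave 13 rises and 3 falls among 24 tested, and 4 higher and 14 lower values in the knockout against injured wild-type, with medians of 0.83 and -0.99. Arc rose by 2.15 (SE 0.25) and Rhob, a small GTPase, by 1.31 (SE 0.17), and Errfi1, an inhibitor of the EGF receptor, fell by 1.46 (SE 0.18) on the log2 scale. Zfp36l1, which promotes decay of messages with AU-rich elements, differed by -1.98 (SE 0.16) in the knockout against injured wild-type. Sgk1, a kinase that regulates sodium transport in the tubule, differed by 1.44 (SE 0.14). Adjusted p was at most 4.97e-05 for these 5 values. The list had the highest median r within groups, 0.612, and 5 of its genes exceeded 0.8 (Zfp36, Ppp1r15a, Gadd45b, Gadd45g and Ptgs2).

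**Figure D5:**
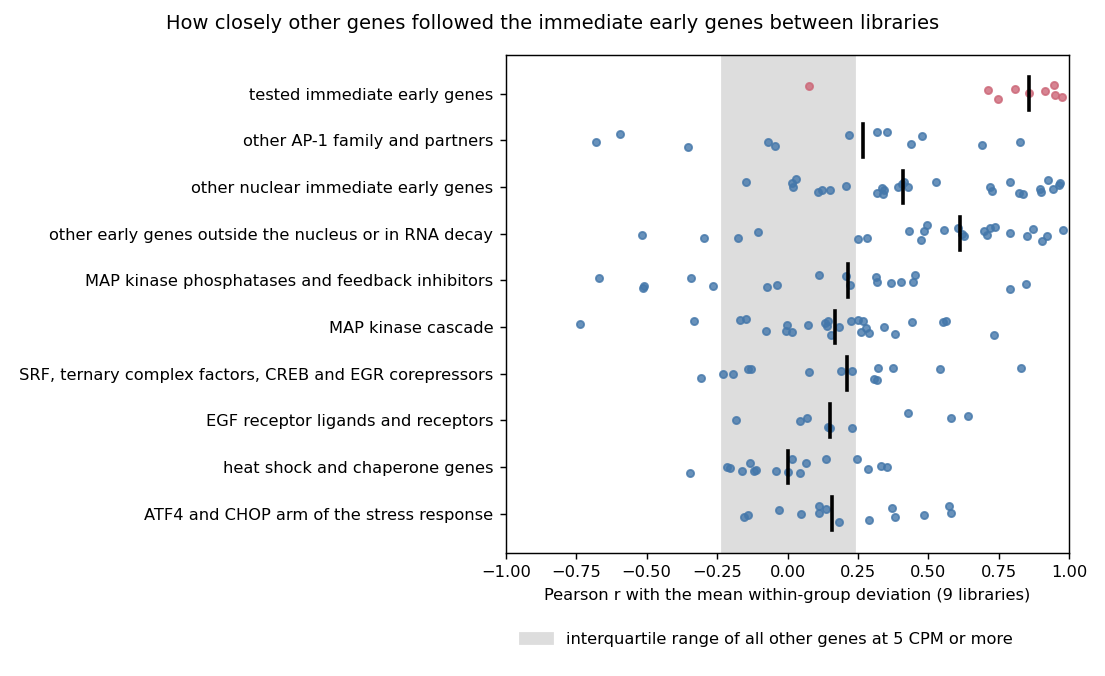
How closely genes of each pathway list followed the immediate early genes between libraries. Points are genes, the x axis is Pearson's r of the within-group deviation with that of the immediate early genes over 9 libraries, bars are medians and the grey band is the interquartile range of all other genes with at least 5 CPM, -0.233 to 0.238. Medians are 0.857 for the 9 genes, 0.612 and 0.41 for both lists of other early genes, and 0.268 or less for the other pathway lists.

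Among 18 MAP kinase phosphatases and feedback inhibitors, the group to which Dusp1 belongs, 7 rose and 4 fell with injury, and 1 was higher and 10 were lower in the knockout against injured wild-type. Dusp2 and Dusp10, nuclear and stress kinase phosphatases, rose by 2.52 (SE 0.31) and 2.198 (SE 0.28), and the Ras pathway inhibitor Spred3 by 2.05 (SE 0.34). In the knockout against injured wild-type Dusp10 differed by -2.64 (SE 0.29) and Dusp2 by -2.35 (SE 0.31), and adjusted p was at most 0.000312 for these 5 values. The list's medians were 0.11 and -0.42. Dusp1 thus had the opposite sign to Dusp2 and Dusp10 in both comparisons. Dusp9, like Dusp1, was called lower with injury and higher in the knockout against injured wild-type. The other genes of the list that fell with injury were Dusp4, Dusp6 and Spred2.

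Of the 26 genes of the MAP kinase cascade itself 8 rose and 9 fell with injury, and 7 were higher and 7 lower in the knockout against injured wild-type. These counts depend on the scaling. With library size alone they were 17 and 4 with injury and 3 and 19 between the injured groups. Calls over all 15974 tested genes moved there to 8915 higher and 1953 lower and to 1852 higher and 9119 lower, respectively. Counts of every other pathway list moved under that scaling too. With injury they went from 5 higher and 2 lower to 10 and 0 for SRF and its partners. Between the injured groups they went from 6 higher and 2 lower to 3 and 6 for heat shock genes. Map3k1 rose by 1.73 (SE 0.16) and Rps6ka1, a kinase activated by ERK, by 1.34 (SE 0.11), while Mapk14, which encodes p38 alpha, fell by 1.36 (SE 0.11) on the log2 scale. Map3k1 differed by -1.86 (SE 0.16) and the ERK kinase gene Map2k2 by 1.11 (SE 0.11) in the knockout against injured wild-type. Of 14 genes for SRF, its partners, CREB and the NAB corepressors 5 rose and 2 fell, and 0 were higher and 7 lower in the knockout against injured wild-type. The SRF coactivator gene Mrtfa rose by 1.09 (SE 0.14), and the ternary complex factor genes Elk3 and Elk4 rose by 1.09 (SE 0.21) and 0.42 (SE 0.10). Mrtfa differed by -1.05 (SE 0.14) and Creb1 by -0.62 (SE 0.09) in the knockout against injured wild-type. Adjusted p was at most 0.00298 for the values of this paragraph. The median r within groups was 0.168 for the cascade and 0.209 for SRF and its partners.

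Of 9 EGF receptor ligands and receptors 2 rose and 2 fell with injury, and 1 was higher and 2 were lower in the knockout against injured wild-type. Egf, made in the distal tubule, fell by 2.86 (SE 0.19), Erbb3 fell by 1.19 (SE 0.25) and Erbb4 rose by 0.90 (SE 0.14) on the log2 scale. Egf differed by 2.35 (SE 0.19) and Erbb4 by -1.45 (SE 0.14) in the knockout against injured wild-type. Adjusted p was at most 0.00162 for these 5 values. Markers of thick ascending limb and distal tubule, 4 of 4 of which fell with injury, stand beside the values of Egf. In the knockout against injured wild-type 3 of these 4 markers were higher and 0 lower. The part of these cells in the values of Egf was not tested.

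Stress genes of other arms gave mixed counts. Of 17 heat shock and chaperone genes 3 rose and 8 fell with injury, and 6 were higher and 2 lower in the knockout against injured wild-type. The mitochondrial chaperone gene Hspd1 fell by 1.72 (SE 0.13) and Hsph1 fell by 1.73 (SE 0.15) on the log2 scale, whereas the small heat shock protein gene Hspb1 rose by 2.75 (SE 0.26). In the knockout against injured wild-type Hspb1 differed by -3.14 (SE 0.27) and Hspd1 by 1.26 (SE 0.13). Of 14 genes in the ATF4 and CHOP arm 7 rose and 2 fell, and 2 were higher and 6 lower in the knockout against injured wild-type. Nupr1, a stress-induced nuclear protein, rose by 2.36 (SE 0.23), the heme-regulated kinase gene Eif2ak1 fell by 0.60 (SE 0.09), and Sesn2 fell by 2.40 (SE 0.35) on the log2 scale. Nupr1 differed by -2.59 (SE 0.23) and Atf5 by -1.05 (SE 0.13) in the knockout against injured wild-type. Adjusted p was at most 0.000139 for the values of this paragraph. Within groups the median r was 0.00201 for heat shock and 0.16 for the ATF4 and CHOP arm. With library size alone Eif2ak1 was not called with injury (log2 fold change -0.05, adjusted p = 0.611). Under the same scaling the median of the knockout against injured wild-type turned from 0.29 to -0.29 for heat shock genes and from 0.10 to -0.49 for the cascade, and the median with injury turned from -0.05 to 0.49 for EGF receptor ligands and receptors.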

How the data were processed

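The deposited table holds whole-number counts per Ensembl gene, one column per library, with no normalisation visible in the values. Per the labels' protocols, libraries were made from total RNA with a NEBNext Ultra kit. Per the submitters' processing notes, mm10 and DESeq2 1.16.1 were used, with no role stated. For the aligner, counter, annotation and strand setting the sources used here give no information. Symbols, coordinates and exon lengths were taken from GENCODE for mm10, in which 55227 of 56305 identifiers were found and 1078 were not.

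The main test was the quasi-likelihood F test of edgeR 4.0.16 (R 4.3.3), 2-sided, with TMM scaling, 1 term per group and all 9 libraries in the same fit. The filterByExpr filter left 15974 genes, over which p-values were adjusted by Benjamini-Hochberg, and the false discovery rate was set at 0.05. An SE is the size of the log2 fold change over the square root of F. CPM were computed with TMM library sizes, and spreads and within-group deviations from log2 CPM with a prior count of 2. Totals of 15626792 to 19987842 counts set the counting error, which is small beside the spread for all tested genes of the set except Egr3. The procedure was tested on simulated counts in which few genes changed. That test does not cover the scaling when many genes change, and with injury 58.2% of tested genes were called. The members and all lists were chosen with earlier results of these data known, so no list is independent evidence. Genes named beside the set were Pfkfb3, in each pathway list the 3 with the smallest p with injury and the 2 with the smallest p between the injured groups, and the 10 with the highest within-group r. One gene that this rule names is not reported here. Genes that make up a printed count were also named, and these, with the genes listed at 0 beside Egr2, were chosen after their values were seen. Marker lists were used to describe cell makeup. Alternatives changed the scaling (DESeq2 size factors, or library size alone), the tool (the Wald test of DESeq2 1.42.0), the filter (none, or a mean of at least 1 CPM), the samples (only the groups compared, or without each library in turn), the model (a replicate block) and, for the shared pattern, the prior count (0.5).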

Additional observations from a re-analysis of the deposited data

How the results depend on the processing

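Leaving out 1 library at a time, the number of genes of the set called with injury ran from 3 to 7 (5 with all libraries) and between injured knockout and injured wild-type from 3 to 5 (4 with all). It was 3 with injury without sham replicate 1, sham replicate 3 or injured wild-type replicate 2, and 7 without sham replicate 2. Without the filter on low counts the count between the injured groups was 9 and that between injured knockout and sham was 1, beside 4343 higher and 4714 lower, and 1439 higher and 1989 lower, of 29048 tested genes. Genes with a sham spread over 2-fold numbered 8 with all libraries and 3 to 7 without one, with 3 left without sham replicate 2. The cause was not tested. Over the same fits the log2 fold change of Fosb ran from -0.10 to 0.95 with injury and from -0.0575 to 1.38 between the injured groups. Between injured knockout and sham it ran from -0.63 to 0.51 for Fos, from -0.48 to 0.64 for Jun, from -0.26 to 0.72 for Junb, from -0.87 to 0.69 for Egr1, from 0.35 to 1.89 for Fosb, from -2.14 to -0.13 for Egr3, from 0.21 to 1.32 for Atf3, from 0.06 to 0.83 for Ier2, from 0.06 to 0.38 for Dusp1 and from -0.16 to 0.12 for Pfkfb3. That of Pfkfb3 was -0.0156 with DESeq2 size factors, -0.0318 with library size alone, -0.0130 without the filter on low counts, -0.0160 with a replicate block and -0.0157 with DESeq2. Over all tested genes, calls between injured knockout and sham fell from 1298 higher and 1515 lower to 253 and 387 without sham replicate 2, to 426 and 638 without sham replicate 3, to 766 and 917 without knockout replicate 2 and to 733 and 827 without knockout replicate 3. With library size alone, calls with injury were 8915 higher and 1953 lower against 4708 and 4589, and between the injured groups 1852 and 9119 against 4444 and 4489. The numbers were not used as pairs, because the labels do not say that a number marks a shared animal or day. Over all tested genes, deviations of same-numbered libraries of different groups correlated from -0.119 to 0.063. Those of differently numbered libraries correlated from -0.0635 to 0.116. Correlations over all genes cannot show whether a few genes varied in pairs. With the replicate block the counts of the set stayed at 5, 4 and 0, the log2 fold change of Jun between injured knockout and sham turned to 0.0835, and 943 and 1105 of all genes were called there. Of the 10 genes named by likeness, 4 to 5 were again among the first 10 when a library was left out. Egr3, with 2 to 24 counts in sham and knockout libraries, is the gene that depth limits most.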

Other observations

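Between injured knockout and sham libraries 8 of the 9 lists of related genes held more lower than higher calls. Neither these counts nor the single genes below were examined with a library left out. Over all tested genes, calls in this comparison fell from 1298 higher and 1515 lower to 253 and 387 without sham replicate 2. Of 12 AP-1 relatives and partners 0 were higher and 2 lower (Atf2 and Maf), and of 28 other nuclear immediate early genes 0 were higher and 3 lower (Ier5, Myc and Btg1). Ier5 differed by -0.62 (SE 0.17, edgeR adjusted p = 0.0303) and Btg1 by -0.45 (SE 0.12, edgeR adjusted p = 0.0266). Among 24 early genes that act outside the nucleus or in RNA decay 2 were higher (Sgk1 and Plk3) and 4 lower (Zfp36l1, Zfp36l2, Socs3 and Pim1). Sgk1, a target of glucocorticoid and mineralocorticoid hormones, measured 210.0, 154.5 and 237 CPM in sham and 321, 322 and 327 CPM in injured knockout libraries, a log2 difference of 0.69 (SE 0.14, edgeR adjusted p = 0.0107). Of 18 MAP kinase phosphatases and feedback inhibitors 0 were higher and 5 lower (Dusp3, Dusp6, Spry1, Spred1 and Spred2), and of 17 heat shock and chaperone genes 0 were higher and 6 lower. The counts were 2 higher and 6 lower for 26 genes of the MAP kinase cascade, 0 and 3 for 14 genes of SRF, its partners, CREB and the NAB corepressors and 0 and 3 for 9 EGF receptor ligands and receptors. The ATF4 and CHOP arm was even, with 1 of 14 higher (Ddit4) and 1 lower (Cebpg). Among all tested genes 8.13% were called higher and 9.48% lower. Of these genes Ankrd9, one of those most like the set within groups, was higher in the knockout than in sham by 0.92 (SE 0.18, edgeR adjusted p = 0.00938).

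Bdh1, the mitochondrial enzyme that makes and uses the ketone body beta-hydroxybutyrate and no immediate early gene, was also among the 10 genes most like the set, with r of 0.923 and a spread of 197 to 263.5 CPM in sham that is small beside that of Fos. It measured 55.0, 79.3 and 64.1 CPM in injured wild-type and 236, 234 and 253 CPM in injured knockout libraries.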
